A study of Canis lupus familiaris with 77 samples.

Results

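The miRNAs cfa-miR-103 and cfa-miR-107 are near-identical paralogs, and both were counted by miR-seq across the tissues of the beagle dog. They were taken as the rows of the expression table that carry those names, which gave 2 of the 650 miRNAs with a read. The libraries used numbered 76 and came from 16 tissues of untreated male beagles, 10 months old by the methods of the study, whose blood was flushed out with saline before the organs were taken. All groups share this strain, sex and age, and no group received a treatment. There were 14 tissues with 5 libraries each (bone marrow, brain, duodenum, heart, ileum, jejunum, kidney, liver, lung, pancreas, plasma, skeletal muscle, testis and thymus), colon with 4 and sciatic nerve with 2. The plasma and bone marrow samples were drawn as 2 mL volumes. By the methods all tissues came from the same 5 dogs, so libraries of different tissues are not independent of each other, and the fits treat them as if they were. The labels do not say which samples came from the same dog, and the study describes its sciatic nerve samples in more than one way, so p-values measure the spread between samples, which may in part be technical.

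miRNAs are short RNAs that guide a silencing complex to messenger RNAs, mainly through the seed, a short stretch near the 5′ end. miR-103 and miR-107 have the same seed and are best known for repressing caveolin-1, which bears on insulin signalling in liver and fat, and Dicer, the enzyme that matures miRNAs. They are made from introns of the pantothenate kinase genes, whose enzymes start the synthesis of coenzyme A. The same hosts appeared in the dog gene table of the UU_Cfam_GSD_1.0 assembly, where MIR103-1 lay within PANK3 on chromosome 4, MIR103-2 within PANK2 on chromosome 24 and MIR107 within PANK1 on chromosome 28. miR-103 therefore has 2 gene copies there and miR-107 has 1. In the expression table the miR-103 row also carries the human and rat miR-103 names and, after a separator, that of cfa-miR-107, while the miR-107 row carries the human and rat miR-107 names. Reads that fit both rows may thus have been counted on both, and the values below are given with that limit.

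Library depth ran from 157871 to 7896424 reads on miRNAs, and RPM are the reads scaled to the same total in every library. Both miRNAs were detected in 76 of 76 libraries. miR-103 had 282980 reads in all and from 74 to 24823 in a library, whereas miR-107 had 93982 in all and from 11 to 14144. The lowest miR-107 count, 11 reads in skeletal muscle replicate 5, gave 34.8 RPM with an exact 95% binomial interval of 17.4 to 62.3. Counting error was far smaller in the plasma libraries, where the smallest, replicate 1, had 1001 miR-107 reads and an interval of 3421 to 3875 RPM. These intervals cover counting error only. By the supplement, plasma RNA had low integrity values, as did bone marrow and some kidney samples. RNA isolation is described separately for solid tissues, bone marrow and plasma. For plasma and bone marrow, tissue and isolation procedure therefore cannot be told apart, and the part of RNA integrity was not tested.

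Some libraries differed in their marker miRNAs from others with the same label. Thymus replicates 1 and 4 had 19006 and 15182 RPM on 4 leukocyte miRNAs and 3766 and 5242 RPM on 3 brain miRNAs. The other thymus libraries had at most 1013 RPM and 473 RPM on these lists. Duodenum replicates 3 and 4 had 23979 and 5996 RPM on 4 gut epithelial miRNAs, against 89379 to 522174 RPM in the other 3. Brain replicate 3 had 23995 RPM on the gut list and 2072 RPM on 4 testis miRNAs, whereas the other 4 brain libraries stayed at or below 3202 and 172 RPM. Red cell miRNAs (miR-451, miR-144 and miR-486; 3 of 3 found) summed to 543769 to 815725 RPM in plasma, so they made up most of each plasma library. Skeletal muscle replicate 4 had 694 RPM on 4 heart and skeletal muscle miRNAs, against 38274 to 112732 RPM in the other 4 muscle libraries and 42457 to 105145 RPM in heart. Testis replicates 2 and 3 had 5368 and 639 RPM on the testis list, against 57912 to 107407 RPM in the other 3. The part of these differences in the results below was not tested beyond leaving out each library in turn. The liver, brain and pancreas lists were high in every library of the tissue they name. Some lists also had reads elsewhere, with 168646 to 230909 RPM of the gut list in liver and 1649 to 4284 RPM of the brain list in plasma. A high value therefore does not by itself show the tissue that a list names.

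miR-103 was an abundant miRNA of every tissue. Its median ranged 9.85-fold, from 719 RPM in skeletal muscle to 7085 RPM in brain, and lay above 100 RPM in 16 of 16 tissues. The SD of log2(RPM + 1) over the 76 libraries was 0.98 and the CV 9.05%. This SD ranked 18 from the lowest of 266 miRNAs with a median above 100 RPM in at least one tissue, whose median SD was 1.83. miR-107 was less even. Its medians ranged 29.4-fold, from 182 RPM in pancreas to 5365 RPM in plasma, with an SD of 1.45, which ranked 83, and a CV of 16.8%. It too exceeded 100 RPM in all 16 tissues, as did 60 miRNAs of the table.

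In brain, miR-103 measured 7085, 7716, 6635, 8691 and 3565 RPM, and miR-107 measured 2332, 2352, 1959, 2487 and 871 RPM. Replicate 5 lay well below the other 4 for both miRNAs. In plasma, miR-103 measured 3847, 4876, 5854, 9402 and 5770 RPM. The miR-107 values of the same plasma libraries were 3643, 4286, 5608, 9034 and 5365 RPM, so the paralogs were almost level. All 5 plasma libraries lay above every library of another tissue for miR-107, where the next highest was 2487 RPM in brain. For miR-103, plasma and brain overlapped.

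The liver libraries held 2088, 2096, 2277, 2929 and 2987 RPM of miR-103 and 903, 960, 1056, 1154 and 1224 RPM of miR-107. Lung had 2747, 2768, 3450, 2456 and 2674 RPM of miR-103 but no more than 448 RPM of miR-107. The miR-107 range of liver was thus above that of lung in every sample, while for miR-103 the liver and lung ranges overlapped. At the low end, skeletal muscle spread widely, with 719, 263, 944, 1647 and 234 RPM of miR-103 and 197, 103.2, 199, 263 and 34.8 RPM of miR-107. The highest values of both came from replicate 4, the library with few muscle miRNAs. The lowest, median and highest miR-103 values of heart were 547, 932 and 1989 RPM, and those of pancreas were 899, 983 and 1416 RPM.

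**Figure D1:**
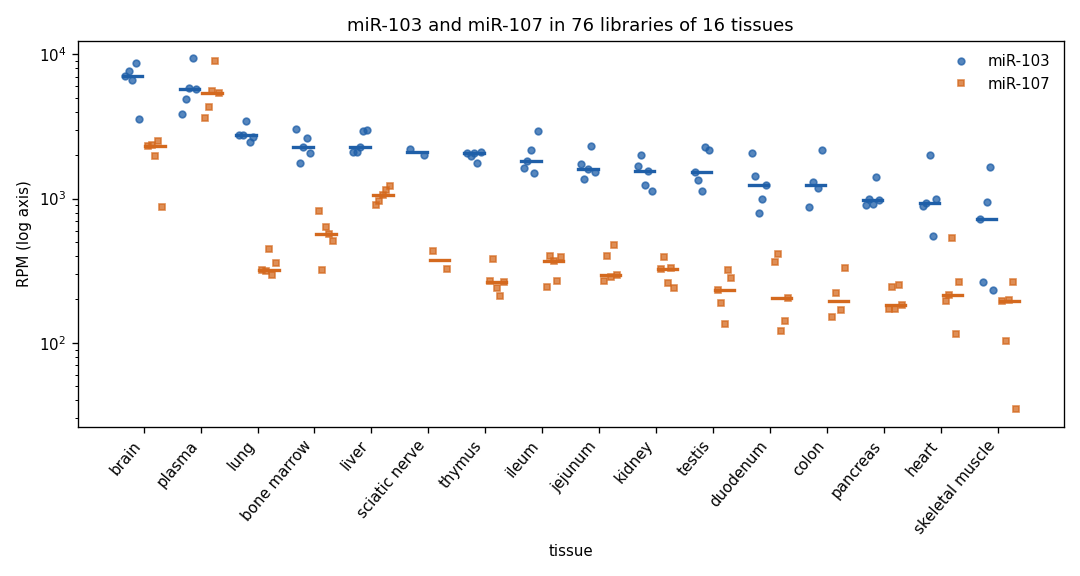
The RPM of miR-103 (circles) and miR-107 (squares) in each of 76 libraries is plotted on a log axis by tissue, with tissues in the order of median miR-103 and bars at the medians. miR-103 fell from 7085 RPM in brain to 719 RPM in skeletal muscle, and miR-107 was near miR-103 in plasma alone, at a median of 5365 RPM.

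By the median of miR-103, the tissues ran in the order brain, plasma, lung (2747 RPM), bone marrow (2286 RPM), liver (2277 RPM), sciatic nerve, thymus, ileum, jejunum, kidney, testis, duodenum, colon, pancreas, heart and skeletal muscle. The 11 tissues after liver fell from 2112 to 719 RPM. By the median of miR-107 the order was plasma, brain, liver (1056 RPM), bone marrow (571 RPM), sciatic nerve (378 RPM), ileum, kidney, lung, jejunum, thymus, testis, heart, duodenum, skeletal muscle, colon and pancreas. Lung came 3 in the order for miR-103 and 8 for miR-107. Tissues next to each other in these orders were compared by an exact two-sided permutation test of mean log2(RPM + 1), and 0 of 30 pairs passed after Benjamini-Hochberg adjustment within each miRNA, while 4 had an unadjusted p under 0.05. With TMM library sizes, 11 of the same 30 pairs passed. They were still paired by the order of the RPM medians, so they need not be neighbours in TMM levels. The closest to passing in RPM were plasma over brain and liver over bone marrow for miR-107, by 1.501 and 0.94 on the log2 scale, each with an adjusted exact p of 0.0595. For miR-103, plasma over lung, by 1.02, had an adjusted exact p of 0.119. The smallest p that 5 against 5 samples allow is 0.00794 before adjustment. The pairs just named all had this p in the exact permutation test, and their samples did not overlap. A pair at this limit could not pass by itself after adjustment, so the lack of passing pairs does not show that neighbours are alike.

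The study calls a miRNA tissue enriched (TE) when its mean is over 5 times that of the remaining samples with an adjusted rank-sum p under 0.05. Here a tissue median above 100 RPM was also required, and the rank-sum test was exact and two-sided. miR-107 was TE in 1 tissue, plasma, with a mean of 5587 ± 2086 RPM (SD, n = 5) against 470 RPM elsewhere, an 11.9-fold difference (exact test, adjusted p = 3.06e-06). In plasma, 2.62% of the 650 miRNAs were TE, and in brain 11.8% were. The plasma median was 2.16 times the highest miR-107 value of any other library.

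miR-103 was TE in none. It was 3.34-fold higher in brain (6739 ± 1934 RPM, SD, n = 5; exact test, adjusted p = 3.67e-05) and 2.87-fold higher in plasma (5950 ± 2094 RPM, SD, n = 5; exact test, adjusted p = 4.48e-04), both short of 5-fold. With TMM or DESeq2 size factors in place of the library totals, miR-103 was TE in 1 tissue, plasma. At that rank-sum threshold, 39.2% of miRNAs were higher in brain and 11.4% in plasma, so the brain result was shared by a large part of the table. miR-107 was also higher in brain, 2.77-fold (exact test, adjusted p = 0.00168), although with TMM sizes its ratio of means was 0.951 while its ranks were still called. In liver miR-107 was higher 1.34-fold (exact test, adjusted p = 0.0372), where 5.38% of miRNAs were higher. This liver call was lost without any one liver library (1.29-fold to 1.39-fold, adjusted exact p from 0.0941 to 0.105), and with DESeq2 size factors its ratio of means was 0.780. In skeletal muscle both were lower, miR-103 at 0.312 of the mean elsewhere (exact test, adjusted p = 0.0200) and miR-107 at 0.187 (exact test, adjusted p = 0.0309), as were 11.5% of miRNAs. The miR-103 call of skeletal muscle was lost without its replicate 1, 2 or 5 (adjusted exact p from 0.0722 to 0.0934) and the miR-107 call without its replicate 1, 2, 3 or 5 (0.0576 to 0.134). DESeq2 size factors also ended both (adjusted exact p = 0.0728 for miR-103 and 0.440 for miR-107), and TMM sizes ended that of miR-107 (0.174). Without replicate 4 both calls were kept, at 0.221 for miR-103 and 0.156 for miR-107. Pancreas had 0.431 of the miR-103 mean elsewhere (exact test, adjusted p = 0.0448), with 6.77% of miRNAs lower, and lost the call without any one pancreas library (adjusted exact p from 0.0539 to 0.140).

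A negative binomial fit to the counts of 480 miRNAs (edgeR quasi-likelihood test, Benjamini-Hochberg adjusted) set each tissue against the mean of the other 15. miR-107 passed in 11 tissues and miR-103 in 8. The largest change was miR-107 in plasma, with a log2 fold change of 4.78 ± 0.13 (SE, edgeR adjusted p = 6.58e-44), where miR-103 rose by 2.53 ± 0.13 (edgeR adjusted p = 1.21e-28). In plasma 27.9% of miRNAs were higher, and the median log2 fold change of all 480 was -0.59. In liver miR-107 rose by 1.55 ± 0.16 (edgeR adjusted p = 3.37e-13), against 23.3% of miRNAs higher and a median of -0.36. In brain miR-107 rose by 1.25 ± 0.16 and miR-103 by 0.79 ± 0.15, where 45.2% of miRNAs were higher and the median was 0.13.

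Lower values came from muscle and several other organs. Skeletal muscle had log2 fold changes of -1.02 ± 0.18 for miR-103 and -0.99 ± 0.21 for miR-107 (edgeR adjusted p = 2.58e-06 and 6.19e-05), with 16.5% of miRNAs lower and a median of -0.25. In heart miR-103 changed by -0.72 ± 0.17 (edgeR adjusted p = 4.49e-04), with 17.3% lower and a median of -0.14. miR-107 in testis changed by -1.36 ± 0.21 (edgeR adjusted p = 1.50e-07), with 16.0% lower and a median of 0.32. These calls, and those of miR-107 in plasma and liver and of both miRNAs in brain, were kept in every alternative fit that could be run for them. miR-103 in plasma kept its call in all of these fits but one, given below with the shared reads. No fit changed the miR-107 count of a library, so none bears on miR-107 reads that may be on both rows.

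The other edgeR calls depended on the fit. miR-107 in colon (-0.98 ± 0.23, with 6.46% of miRNAs lower) lost its call only when plasma and bone marrow were left out (adjusted p = 0.0679). miR-103 in testis (-0.64 ± 0.17) lost it under 5 of 7 other settings, with unscaled library totals giving -0.21 (adjusted p = 0.545). The miR-107 value of thymus (-0.69 ± 0.20, with 5.21% lower) lost it under 3 of 6. Both pancreas values (-0.72 ± 0.17 for miR-103 and -0.87 ± 0.20 for miR-107, with 19.2% lower) lost their calls without colon replicate 3, kidney replicate 5, plasma replicate 3, plasma replicate 5 or skeletal muscle replicate 2, at adjusted p from 0.141 to 0.187 and from 0.0653 to 0.0718. Without any one of those 5 libraries the tissues called fell to 5 for miR-103 and to 7 for miR-107. The pancreas values of these 5 fits were close together, from -0.37 to -0.35 for miR-103 and from -0.52 to -0.51 for miR-107. Each fit estimates the scaling anew, and the part of this was not tested. Calls of miR-103 in liver (0.51 ± 0.15) and of miR-107 in heart (-0.55 ± 0.20) and duodenum (-0.57 ± 0.20, with 3.75% lower) were each lost without any one of 9 libraries. The same 5 were among them each time. For liver the others were brain replicate 4, liver replicate 2 and both sciatic nerve replicates. For heart they were brain replicates 1 and 4 and heart replicates 2 and 4, and for duodenum its replicates 1, 3, 4 and 5. Over all 9, the edgeR adjusted p ran from 0.0665 to 0.304 for liver, 0.0629 to 0.130 for heart and 0.0594 to 0.162 for duodenum. miR-103 in colon (-0.49 ± 0.19) and miR-107 in lung (-0.55 ± 0.20, with 8.75% lower) lost the call when any one of 51 libraries was left out, with values then from -0.50 to -0.31 for miR-103 and from -0.57 to -0.29 for miR-107. With DESeq2 size factors the miR-103 value of liver was 0.02, and without plasma and bone marrow no call remained for either miRNA in pancreas, or for miR-107 in duodenum, lung and heart. Conversely miR-103 in lung, at 0.33 ± 0.16 (edgeR adjusted p = 0.106), passed as higher in 5 other settings, with 0.64 without plasma and bone marrow (adjusted p = 5.82e-04) and 0.74 with the miR-107 count taken off (6.22e-05), but was -0.15 with DESeq2 size factors (0.628). Kidney, not called in the main fit, passed as higher without plasma for miR-103 (0.47, edgeR adjusted p = 0.00337) and miR-107 (0.54, 0.00646). With unscaled library totals its values were -0.37 and -0.46, neither called.

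**Figure D2:**
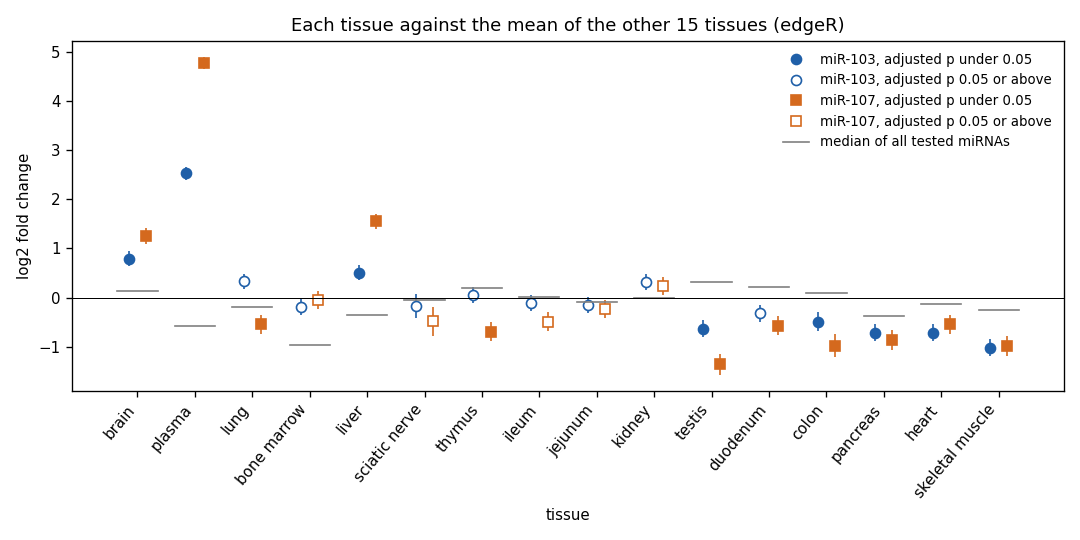
The edgeR log2 fold change of each tissue against the mean of the other 15 is plotted for miR-103 (circles) and miR-107 (squares), with bars of 1 SE and grey lines at the median of the 480 miRNAs tested. Filled points passed an adjusted p of 0.05, and plasma stood apart at 4.78 for miR-107 and 2.53 for miR-103.

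The number of miR-103 reads per miR-107 read does not depend on library size. miR-103 exceeded miR-107 in 76 of 76 libraries, with a median ratio of 5.17. In plasma the ratios were 1.06, 1.14, 1.04, 1.04 and 1.08, below those of every other library. Liver had 2.31, 2.18, 2.16, 2.54 and 2.44, and brain had 3.04, 3.28, 3.39, 3.49 and 4.09. The liver libraries lay under all others but plasma, although skeletal muscle replicate 2 was next to them at 2.55, a ratio that rests on 44 miR-107 reads.

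At the other end, lung had 8.53, 8.81, 7.70, 8.25 and 7.49 miR-103 reads per miR-107 read. Thymus had 7.68, 5.17, 8.60, 8.30 and 8.01, and testis had 6.50, 7.13, 8.37, 7.17 and 7.65. The medians of the other 10 tissues lay between 4.04 in bone marrow and 6.25 in colon. Kidney was the steadiest of these, with ratios from 4.66 to 5.17. Skeletal muscle was the most spread, from 2.55 to 6.73.

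The log2 ratio of each tissue was set against that of all other samples by an exact two-sided rank-sum test, adjusted over the 16 tissues, and 6 tissues passed. Plasma was lower by 2.24 on the log2 scale (exact test, adjusted p = 1.73e-06), with a mean of 0.10 ± 0.05 (SD, n = 5). Liver differed by -1.05 (exact test, adjusted p = 0.00150), with a mean of 1.22 ± 0.10 (SD, n = 5). Lung was higher by 0.89 (exact test, adjusted p = 2.81e-04), with a mean of 3.03 ± 0.10 (SD, n = 5). These 3 calls held in every alternative run, none of which took off reads that may be counted on both rows. Testis (0.73) and thymus (0.75) were higher, each with an adjusted exact p of 0.0120, and brain (-0.44) was lower (exact test, adjusted p = 0.0411). Thymus and brain both lost their calls without thymus replicate 3 (adjusted exact p = 0.0531 and 0.0527), which left 4 tissues. Brain lost its call without any one of brain replicates 1 to 4, at adjusted exact p from 0.0887 to 0.0948. The brain call was also lost in 3 of 5 other settings, where the adjusted p reached 0.467 (exact rank-sum or permutation test). Testis, where 4 of 5 libraries had under 100 miR-107 reads, lost its call with libraries under that count left out (0.93, adjusted exact p = 0.281, from the 1 testis library that remained) and with thinning (adjusted exact p = 0.0993). With every library thinned to 157871 reads, 3 tissues passed.

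**Figure D3:**
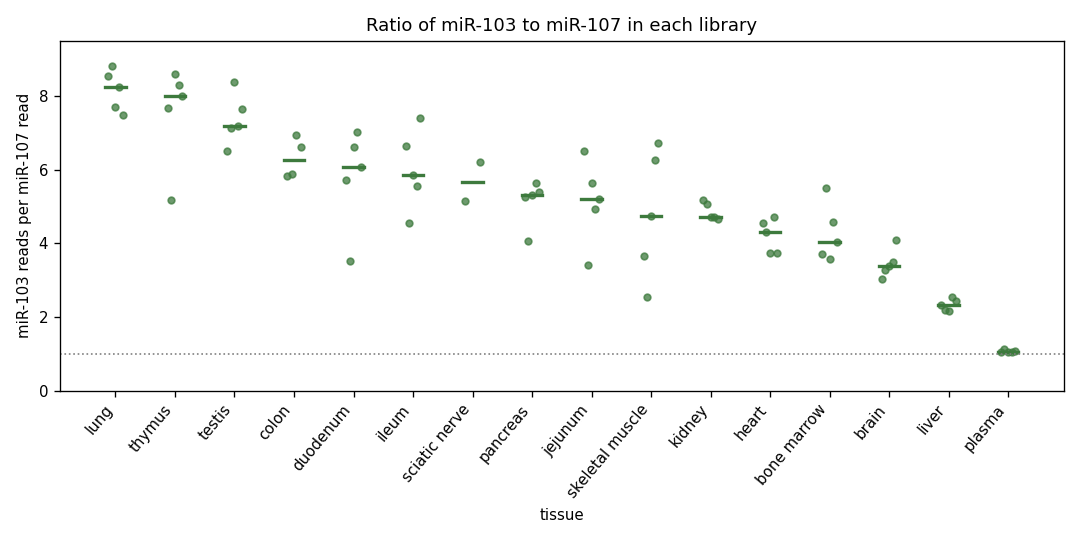
Each point is the number of miR-103 reads per miR-107 read in one library, by tissue in the order of the median, with bars at the medians and a dotted line at a ratio of 1. Plasma lay at 1.04 to 1.14, liver at 2.16 to 2.54 and lung at 7.49 to 8.81.

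Because the deposited total is the number of reads on miRNAs while a read can be counted on several rows, the sum of all counts exceeds the total where reads were counted more than once. This excess was 0.0449% to 1.16% of the total and was highest in plasma, at 0.438% to 1.16%. It amounted to 1.20 to 1.29 times the miR-107 count in plasma and from 1.07 to 1.29 times in liver, so in both tissues it was large enough to hold all miR-107 reads. If the total counts each read once, the excess was smaller than the miR-107 count in 2 libraries only, brain replicates 1 and 4, at 0.880 and 0.934 times. Hence at least 220 and 244 miR-107 reads of these libraries were counted on no other row. In skeletal muscle the excess reached 33.2 times the miR-107 count, so reads shared among other miRNAs make up part of it. How many plasma reads were shared by miR-103 and miR-107 was not tested.

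Taking the miR-107 count off the miR-103 count gives the fewest reads that can be on miR-103 alone. This holds only if miR-103 reads are shared with no row but that of miR-107 and are counted once per row. This bound was 204, 591, 246, 369 and 406 RPM in plasma, which put plasma last of the 16 tissues, and it was 4753, 5364, 4676, 6204 and 2694 RPM in brain, which stayed first. Lung followed with 2425, 2454, 3002, 2158 and 2317 RPM. With this bound in place of the full count, chosen after the values were seen, miR-103 in plasma turned from 2.87-fold higher to 0.226 of the mean elsewhere (exact test, adjusted p = 2.24e-04, where 21.8% of miRNAs were lower). Its edgeR log2 fold change turned from 2.53 to -1.19 (adjusted p = 5.67e-08). The brain difference kept its direction at 3.66-fold (exact test, adjusted p = 1.26e-06), and lung was 1.70-fold higher (exact test, adjusted p = 0.0149, with 7.69% of miRNAs higher). The direction of miR-103 in plasma therefore rests on reads that may also be on the miR-107 row. The step leaves the miR-107 count as it was by construction, so it says nothing of the miR-107 result. In every plasma library the excess was larger than the miR-107 count, at 1.20 to 1.29 times. The plasma miR-107 level, its calls and the ratio may thus also rest on reads counted on both rows.

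**Figure D4:**
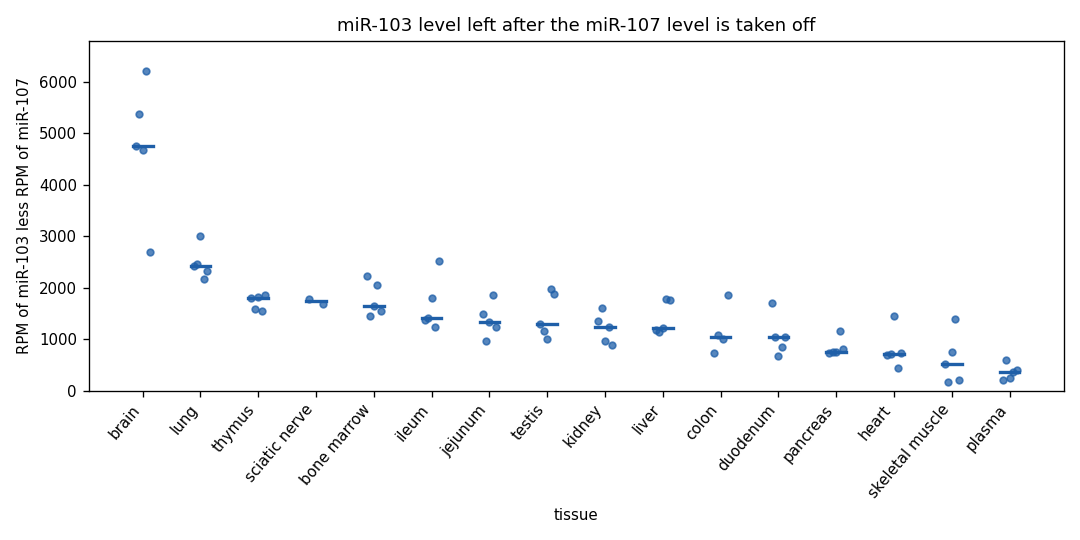
The miR-103 RPM less the miR-107 RPM is plotted for each library by tissue, with bars at the medians. It is a lower bound of the reads on miR-103 alone if these are shared with the miR-107 row only. Brain was highest, at a median of 4753 RPM, lung followed at 2425 RPM and plasma was lowest at 369 RPM.

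The plasma values of miR-107 were measured in libraries made up mostly of red cell miRNAs, as given above. Bone marrow, with 83638 to 144926 RPM on the same red cell list, had 826, 322, 638, 571 and 510 RPM of miR-107 and ratios of 3.58 to 5.51. Heart, with 99921 to 274986 RPM on that list, had 116 to 532 RPM of miR-107 and ratios of 3.73 to 4.72. Of the red cell list, only miR-486 is named by the study among the most expressed miRNAs of heart. How far the list measures red cells in perfused heart was not tested. The 4 leukocyte miRNAs summed to 13206 to 39235 RPM in plasma and 13759 to 24718 RPM in bone marrow. The part of blood cells in the plasma result was not tested.

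The opposite strand of each hairpin leaves a 5p arm, which is usually degraded. Human miR-103a-2-5p had 74 reads in 30 libraries, rat miR-103-1-5p had 9 reads in 9 libraries and rat miR-107-5p had 55 reads in 27 libraries, all assigned by the homologs' names. In liver, miR-107-5p made up 14 of 17 reads on these arms, or 82.4% (exact 95% binomial interval 56.6 to 96.2). In brain it made up 18 of 53, or 34.0% (21.5 to 48.3), and in kidney 8 of 19, or 42.1% (20.3 to 66.5). Lung had 0 of 10, which allows a share of up to 30.8%. Heart had 4 of 4 on miR-107-5p (39.8 to 100), although its ratio of the main arms was not among the lowest. The 5p reads are few and were pooled over samples, so these shares were not compared by a test. Plasma had 0 reads on these arms in 6440642 reads, which allows up to 0.466 RPM each. At this depth the 5p arms could not show which hairpin the plasma reads came from.

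The group of miR-15 and miR-107 relatives shares a short stretch of bases near the 5′ end with miR-107. Its other dog members that were fixed as a list are miR-15a, miR-15b, miR-16, miR-195, miR-424, miR-497 and miR-503, several of which are known as brakes on the cell cycle, and all 7 were tested by edgeR. In plasma 5 of 7 were higher and 2 lower, beside 27.9% and 24.8% of all miRNAs, with a median log2 fold change of 1.85 against -0.59 over all miRNAs. Among the 5 were miR-424 and miR-503, at plasma medians of 8.99 and 1.70 RPM. miR-16, by far the most abundant, had a median of 37816 RPM there and rose by 3.11 ± 0.19 (edgeR adjusted p = 1.86e-23), and miR-15a rose by 4.08 ± 0.24 (edgeR adjusted p = 9.56e-25). miR-195 fell by 5.03 ± 0.41 on the log2 scale, from medians of 2396 RPM in lung and 1349 RPM in bone marrow to 13.7 RPM in plasma (edgeR adjusted p = 1.08e-17). miR-497 fell by 1.98 ± 0.36 (edgeR adjusted p = 3.03e-06).

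In brain, where both miR-103 and miR-107 were higher, 0 of the 7 were higher and 3 were lower. Of all miRNAs, 45.2% were higher in brain and 28.1% lower. The 3 were miR-15b at -2.63 ± 0.36 (edgeR adjusted p = 1.12e-09), miR-16 at -1.54 ± 0.30 and miR-15a at -1.25 ± 0.38. The list's median was -1.21 against 0.13 over all miRNAs. This median was the value of miR-503, which had an SE of 47.2 and a median of 0.62 RPM in brain. It is therefore poorly determined. In liver 1 of 7 was higher, miR-15a at 0.93 ± 0.31 (edgeR adjusted p = 0.0140), and 0 were lower, beside 23.3% of all miRNAs higher and 12.5% lower. In lung 3 were higher, led by miR-195 at 2.27 ± 0.21 (edgeR adjusted p = 3.97e-14), and 0 were lower. Of all miRNAs, 20.6% were higher in lung and 8.75% lower. In testis 4 were higher and 0 lower, where 34.0% of all miRNAs were higher and 16.0% lower. Among the 4 was miR-503, at a median of 3.65 RPM.

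The miRNAs with the pattern most like that of each paralog were ranked by the Spearman correlation of the 16 tissue medians among 265 candidates. For each of the pair the most alike was the other, with a rho of 0.89 over the 16 medians and 0.88 over the 76 libraries, a value that reads counted on both rows would raise. Next for miR-103 came let-7d (0.86), miR-1839 (0.76), miR-191 (0.76) and human miR-223-5p (0.71). For miR-107 they were let-7d (0.77), human miR-505-3p (0.71), miR-1839 (0.69) and miR-421 (0.67). All points share library totals, so these values are descriptions.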

How the data were processed

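Untreated beagle tissues were profiled by miR-seq. Per the labels and methods, the authors aligned adaptor-trimmed reads to CanFam 3.1 with OSA 4 without mismatches, discarded any read matching over 10 genomic locations, and assigned reads by an overlap of 70% with a miRNA locus of dog, rat or human (miRBase 21). The deposited values used were counts, RPM (counts scaled to the deposited total) and the total reads on miRNAs. RPM were recomputed from the deposited counts, and absent rows were set to 0. A sample name not mapped to one labelled sample (1) and a colon sample without values were not used. edgeR 4.0.16 (TMM, filterByExpr) and, as an alternative, DESeq2 1.42.0 were run in R 4.3.3, and exact tests in Python 3.11.15. Scripts were tested on simulated data. The members and lists were chosen with earlier results of these data known. Named miRNAs are the pair, their other arms, the group of miR-15 and miR-107 relatives and the 5 miRNAs most alike. Alternatives covered scaling, filters, references, tests, thinning and each library left out. Mature sequences were not used here.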

Additional observations from a re-analysis of the deposited data

Results flagged for a closer look

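In 45 groups of 4 or 5 libraries (each miRNA's log2 RPM and the log2 ratio, by tissue), 4 single libraries lay far from the rest of their group by Dixon's gap over range, where chance gives about 1 in 20. Pancreas replicate 4 was high in miR-103, with a log2 RPM of 10.47 against 9.81 to 9.96 in the other 4 (gap over range 0.771). Brain replicate 5 was low in miR-107, at 9.77 against 10.94 to 11.28 (0.772). Pancreas replicate 2 had a low log2 ratio of miR-103 to miR-107, 2.02 against 2.39 to 2.50 (0.782). Thymus replicate 2, the smallest library, also had a low log2 ratio, 2.37 against 2.94 to 3.105 (0.777), which rests on 60 miR-107 reads.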

How the results depend on the processing

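Of 33 single calls, 13 were kept in every alternative: edgeR for miR-103 in brain, heart and skeletal muscle and for miR-107 in brain, liver, plasma, skeletal muscle and testis, the folds of miR-107 in plasma and miR-103 in brain, and the ratios of plasma, liver and lung. The size of the miR-103 brain fold still ran from 1.40 to 3.99 over the other settings. No alternative took reads that may be on both rows off the miR-107 count or the ratio, so being kept does not bear on such reads. Leaving out each library gave 0 reversals, with 2346 values on the same side of the threshold and 162 past it no more. The tissues TE for miR-103 went from 0 to 1 (plasma) with TMM sizes and to 1 (plasma) with DESeq2 size factors, and those for miR-107 from 1 to 2 (with brain) on medians. The tissues with a different ratio went from 6 to 3 after thinning. The pairs of neighbours by RPM median that differ went from 0 to 11 with TMM sizes, for which the order was not redone. The tissues called by edgeR for miR-107 went from 11 to 4 without plasma and bone marrow and to 7 without plasma, the latter chosen after seeing the data. The miR-103 count less the miR-107 count and a minimum of 100 miR-107 reads were chosen likewise; the first reversed miR-103 in plasma (0.226-fold, log2 -1.19). The ratio of means of miR-107 fell below 1 in brain with TMM sizes (0.951) and in liver with DESeq2 size factors (0.780). Leaving out each library gave 5 to 9 tissues for miR-103 and 7 to 12 for miR-107 by edgeR, 4 to 6 for the ratio, 0 to 0 and 1 to 1 for TE, and 0 to 0 for neighbours. Except where the setting itself changes the samples or counts, the cause was not tested. No paired analysis was possible because the labels do not say which of the 5 dogs a sample came from and give no shared replicate numbers. Depth limits the ratio most in the 11 libraries with under 100 miR-107 reads.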
